A study of Mus musculus with 9 samples.

Results

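Genes of the endoplasmic reticulum (ER) stress response and of the ATF4 programme were followed across 3 lines of B16F10 cells, an established mouse melanoma cell line. The 42 genes were chosen by function, with earlier results of these data known, so their shares beside all genes are descriptions. They are 17 ER folding genes and 4 genes of ER-associated degradation (ERAD), together the 21 genes of the ER arm. The rest are 3 stress sensors and the factor Xbp1, and 17 genes of the ATF4 arm. All 42 were found among 51717 genes and all passed the filter on low counts, which left 13064 genes for testing. The lines carried a non-target control, a knockdown of SIRPA or an overexpression of SIRPA, with 3 libraries each, given as biological repeats. SIRPA is an inhibitory surface receptor, best known on myeloid cells, that binds CD47. The labels give no drug, stress agent or time course, and do not say whether a line is a clone or a pool or how SIRPA was altered. Each condition is therefore 1 line, so the p-values speak of variation among its repeats and not among independently made lines.

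The unfolded protein response is run by 3 sensors in the ER membrane. ATF6 is cut in the Golgi and IRE1 (Ern1) splices the Xbp1 messenger, and the factors they release raise chaperones, folding enzymes and ERAD genes. The third sensor, PERK (Eif2ak3), phosphorylates the translation factor eIF2, which lowers general translation and favours translation of ATF4. ATF4 raises genes of amino acid supply and of stress signalling, and other eIF2 kinases that sense amino acid or heme shortage can start the same programme without ER stress. Because ATF4 is largely set by translation and Xbp1 by splicing, their messenger levels do not measure their activity.

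The division into arms has a known counterpart in promoter sequence, so stretches of 9 promoters are shown first, chosen after the matches were known as examples of each element in genes that the results return to. RefSeq windows (GRCm38.p6) from 250 bases before to 50 bases after the start were present for 38 of the 42 genes. They were searched on both strands for the ER stress response element, CCAAT and CCACG with 9 bases between them, and for its second type, ATTGG and CCACG with 1 base between. They were also searched for TGACGTGG, an XBP1 type element, and for TGATGNAA, the core of the C/EBP-ATF element used by ATF4. In the sequences below, written 5′ to 3′ on the strand of the gene, capitals mark the matches. A match on the opposite strand reads as its reverse complement (CGTGG and ATTGG, or TTGCATCA).

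Hspa5, chr2:34772013-34772055, plus strand: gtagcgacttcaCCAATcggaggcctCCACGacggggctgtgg
Canx, chr11:50325788-50325830, minus strand: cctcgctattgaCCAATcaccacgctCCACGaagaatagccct
Calr, chr8:84847063-84847105, minus strand: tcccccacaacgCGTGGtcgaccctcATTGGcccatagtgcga
Syvn1, chr19:6046520-6046562, plus strand: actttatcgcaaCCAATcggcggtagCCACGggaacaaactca
Herpud1, chr8:94386305-94386399, plus strand: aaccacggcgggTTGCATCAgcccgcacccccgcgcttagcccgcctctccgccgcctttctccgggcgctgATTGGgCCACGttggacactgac
Asns, chr6:7693213-7693244, minus strand: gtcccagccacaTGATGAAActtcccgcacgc
Chac1, chr2:119351037-119351068, plus strand: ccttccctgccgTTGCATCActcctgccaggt
Nupr1, chr7:126625561-126625592, minus strand: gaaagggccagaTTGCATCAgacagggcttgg
Vldlr, chr19:27216808-27216839, plus strand: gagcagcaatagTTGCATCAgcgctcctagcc

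The first ER stress response element stood in 8 of 18 ER-arm windows (44.4%), namely those of Hspa5, Hsp90b1, Calr, Canx, Dnajc3, Creld2, Pdia6 and Syvn1, and in 0 of 17 ATF4-arm windows. It stood in 37 of 27025 genes with a window (0.137%), these 8 included. Its second type stood in the windows of Dnajb11 and Herpud1, which is 11.1% of the ER arm against 0.0444% of all genes. The C/EBP-ATF core stood in 6 of 17 ATF4-arm windows (35.3%), those of Asns, Atf3, Chac1, Nupr1, Trib3 and Vldlr, and in 1219 of all genes with a window (4.51%). Herpud1 was the member whose window held both the second ER element and the C/EBP-ATF core. TGACGTGG was in no member's window and in 0.714% of all genes. These matches describe letters in a short window and show neither binding nor use. Hyou1, Atf6, Hspa13 and Manf had no entry.

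**Figure D1:**
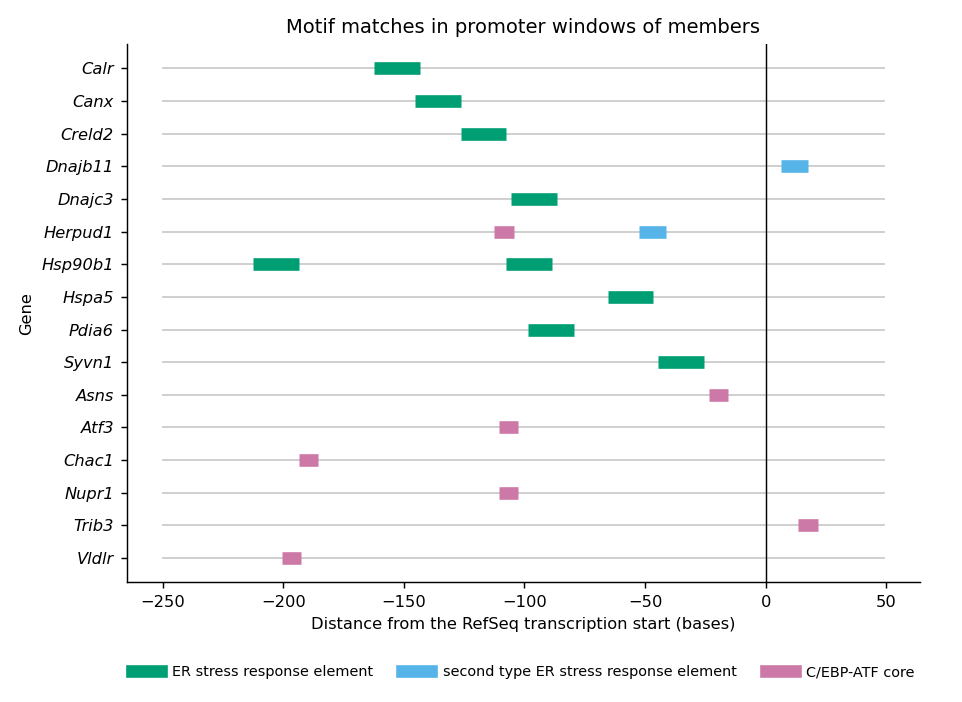
Positions of motif matches in the promoter windows of the members that hold one, in bases from the annotated start (horizontal axis), with 1 row per gene. Each mark is a match: the ER elements fall in ER-arm genes and the C/EBP-ATF core in 6 ATF4-arm genes and Herpud1.

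The libraries held 16404396 to 22379203 estimated counts. Sirpa itself was at 289 to 303 CPM (counts scaled to a common library size) in the control, 112 to 118 in the knockdown and 895 to 914 in the overexpression libraries, as labelled. All 8 melanocyte markers were expressed, summing to at least 14775 TPM (transcript abundance corrected for length and library size) in every library. The 4 T and NK cell markers were at 0 in all 9 libraries. Of 6 myeloid markers Ptprc and Adgre1 were at 0, and the list summed to 2.5 to 4.57 TPM in the control, 5.43 to 8.63 in the knockdown and 3.58 to 4.89 in the overexpression libraries. Most of that was Cd68 (means of 2.93, 4.71 and 1.65 TPM) and Lyz2 (0.616, 1.91 and 2.41). Fibroblast markers summed to 16 to 18, 6.62 to 8.7 and 17.9 to 21.8 TPM. The low knockdown sum was that of Col1a1 (13.3, 1.26 and 16.4), while Col1a2 (1.7, 3.77 and 2.74) and Pdgfra (1.65, 2.34 and 0.707) had higher means there than in the control. Of 4 epithelial markers Epcam, Krt8 and Krt18 were at 0 and Cdh1 had means of 0.689, 0.211 and 0.747 TPM. The 4 endothelial markers summed to at most 0.867 TPM, with Cdh5 and Kdr at 0. Of 6 plasma and secretory cell markers, Jchain, Ins2 and Amy2a1 were at 0 and Sdc1 was at 47.4, 43 and 47.4 TPM. Mitochondrial transcripts took 2.14% to 2.17% of counts in the control against 2.36% to 2.57% in the knockdown and 2.37% to 2.51% in the overexpression libraries. Ribosomal protein genes took 4.7% to 4.78%, 3.83% to 4.13% and 3.92% to 4.11%. The part of these shifts in the results was not tested.

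In the control line the most abundant members, by TPM, which corrects for length, were the chaperones Calr (1124 ± 34, SD, n = 3), Hspa5 (961 ± 35) and Hsp90b1 (959 ± 33), and the last 2 did not differ beyond their spread. Phgdh was the highest ATF4-arm gene at 417 ± 3.5 TPM, followed by Atf4 at 339 ± 18. At the low end were Vldlr (2.51 ± 1 TPM), the sensor Ern1 (5.93 ± 1.1) and Atf3 (11.8 ± 2.8). Summed over its 21 genes, the ER arm held 6934 ± 92 TPM in the control, 8345 ± 90 in the knockdown and 7617 ± 160 in the overexpression line. The ATF4 arm held 2157 ± 26, 2379 ± 62 and 2855 ± 20 TPM. The ratio of the ER sum to the ATF4 sum was 3.22, 3.22 and 3.21 in the control libraries, 3.59, 3.43 and 3.51 in the knockdown and 2.61, 2.66 and 2.73 in the overexpression libraries. The knockdown libraries were all above the control in this ratio and the overexpression libraries all below it. These sums follow the most abundant genes and carry no test. TPM also lacks the scaling between libraries that CPM has here. In the knockdown the ER-arm median log2 fold change was 0.18 on log2(TPM + 1) against 0.12 on counts. The ATF4-arm median there was 0.25 against 0.18. In overexpression the medians were 0.10 against 0.07 and 0.34 against 0.34. In bulk RNA a change in the mix of cells and a change in RNA per cell cannot be told apart.

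**Figure D2:**
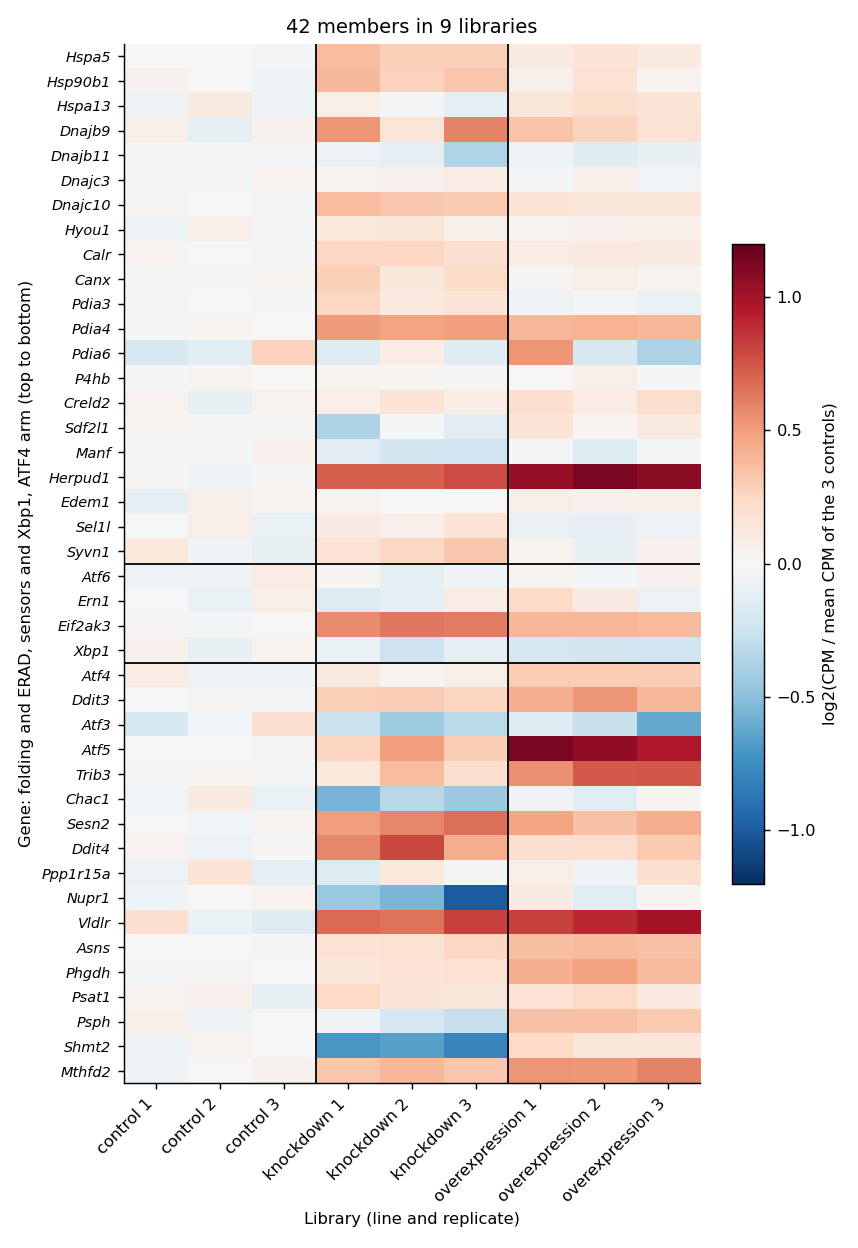
Heat map of the 42 genes (rows, by arm) in the 9 libraries (columns), coloured by log2 CPM minus the mean of the control libraries. Herpud1 is high in all 6 libraries with altered SIRPA, Shmt2 is low in the 3 knockdown libraries, and Atf5 is highest in the 3 overexpression libraries.

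Each line was compared with the control by edgeR's quasi-likelihood test, and a gene was called higher or lower when its p, adjusted by Benjamini-Hochberg across the 13064 tested genes, was under 0.05. In the knockdown, 22 of the 42 genes rose and 6 fell, where 18.0% of all genes tested rose and 17.4% fell (35.4% in either direction). The median log2 fold change was 0.14 over the members and -0.008 over all genes. In the overexpression line 19 rose and 1 fell, against 13.1% and 11.1% of all genes (24.3% in either direction), with medians of 0.12 and -0.001. Counted without a test, 23 members had all 3 knockdown libraries above all 3 control libraries and 6 had them below, against 22.8% and 23.0% of all genes. For overexpression the counts were 22 above and 3 below, against 20.7% and 19.7%. Both comparisons share the 3 control libraries. Members are expressed above most genes, 37 of 42 at or above the median level of 29.5 CPM, and abundant genes are called more readily. Among the 6532 genes at or above that level, a background chosen after seeing the data, 24.6% rose and 21.4% fell in the knockdown, and 18.8% rose and 14.8% fell in the overexpression line.

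**Figure D3:**
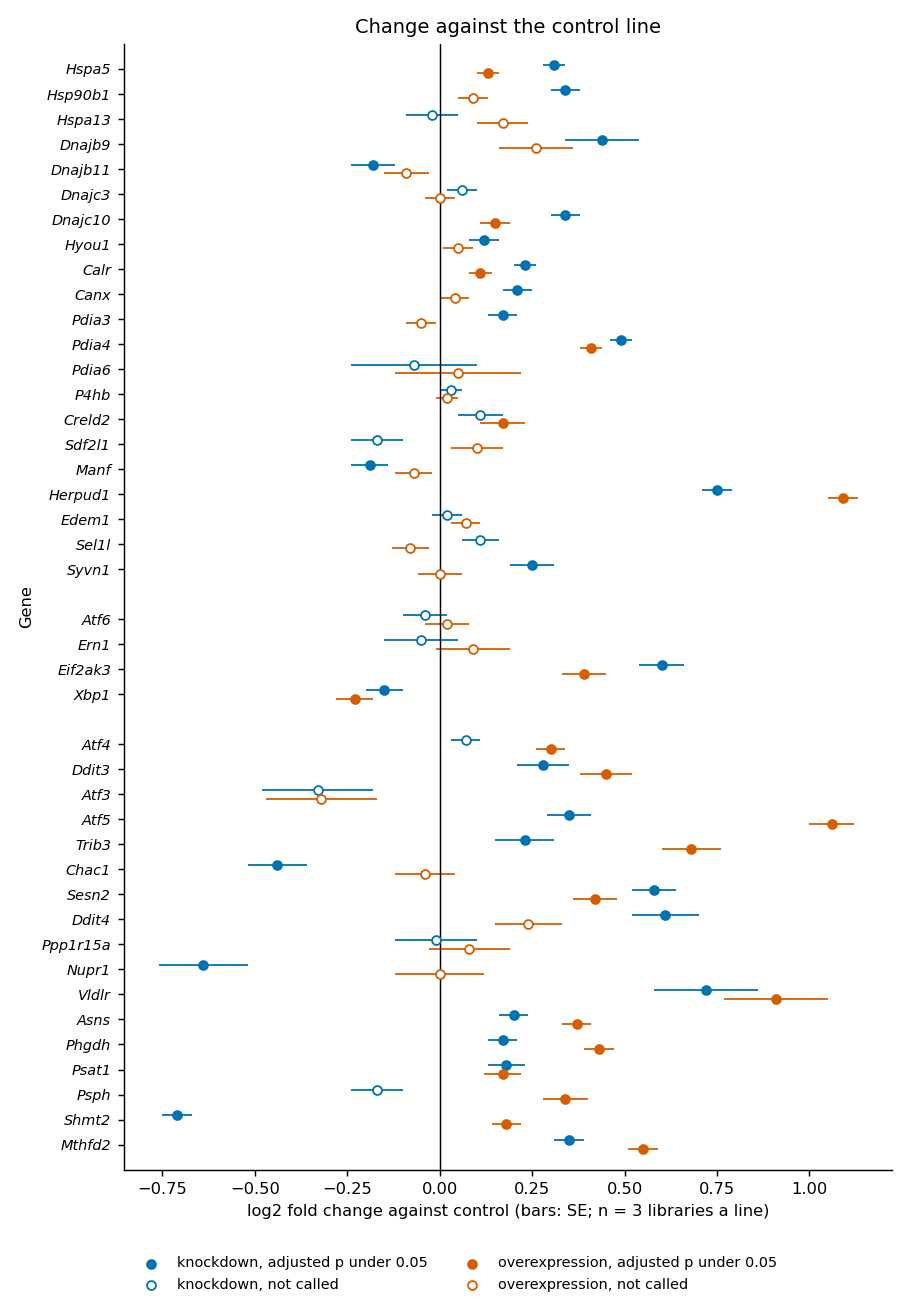
Log2 fold change against the control of each gene (rows), in the knockdown and the overexpression line, with bars for 1 SE on either side and filled points for genes called at an adjusted p under 0.05. ER-arm points lie mostly further right in the knockdown, and several ATF4-arm points, Atf5 and Trib3 among them, further right in overexpression.

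Of the 17 ER folding genes, 9 rose in the knockdown, 2 fell and 6 were not called, with a median log2 fold change of 0.12. In the overexpression line 5 rose and 12 were not called, with a median of 0.09. As shares, 52.9% rose and 11.8% fell in the knockdown, and 29.4% rose in overexpression. These stand beside 18.0% and 17.4%, then 13.1% and 11.1%, of all genes tested. Among genes at or above the median level the shares are 24.6% and 21.4%, then 18.8% and 14.8%. Hspa5 (BiP), the main Hsp70 chaperone of the ER, was at 1611, 1608 and 1585 CPM in the control, 2073, 1952 and 1948 in the knockdown and 1727, 1795 and 1725 in the overexpression libraries. The 3 sets do not overlap and the knockdown is highest. Its log2 fold change was 0.31 ± 0.03 (SE) in the knockdown (adjusted p = 2.13e-06) and 0.13 ± 0.03 in overexpression (adjusted p = 0.0106). Hsp90b1 (GRP94), the ER's Hsp90, was at 1839, 1777 and 1723 CPM in the control, 2338, 2161 and 2242 in the knockdown and 1856, 2009 and 1836 in the overexpression libraries. It rose by 0.34 ± 0.04 in the knockdown (adjusted p = 8.26e-06), while the overexpression libraries overlapped the control (0.09 ± 0.04, adjusted p = 0.106).

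Pdia4, a protein disulfide isomerase, changed most among the folding genes. It was at 499, 514 and 503 CPM in the control, 720, 699 and 710 in the knockdown and 666, 676 and 667 in the overexpression libraries. Both altered lines were well above the control, by 0.49 ± 0.03 (adjusted p = 1.68e-08) and 0.41 ± 0.03 (adjusted p = 3.05e-07). Dnajc10, a disulfide reductase that works with BiP, was at 177, 175 and 172 CPM in the control, 226, 219 and 217 in the knockdown and 196, 193 and 192 in the overexpression libraries. Its change was 0.34 ± 0.04 (adjusted p = 5.67e-06) and 0.15 ± 0.04 (adjusted p = 0.0108). Dnajb9, a BiP co-chaperone, was at 37.6, 33 and 37.1 CPM in the control, 51.9, 39.6 and 54.4 in the knockdown and 45.4, 43.1 and 40.4 in the overexpression libraries. The second knockdown library lies close to the control, and the rise was 0.44 ± 0.10 (adjusted p = 0.00324). In overexpression Dnajb9 stood at 0.26 ± 0.10 (adjusted p = 0.0815), and it was called without knockdown replicate 2 (adjusted p = 0.0208).

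The lectin chaperones of glycoproteins, Calr and Canx, rose in the knockdown by 0.23 ± 0.03 and 0.21 ± 0.04, as did their partner oxidoreductase Pdia3 by 0.17 ± 0.04 and the Hsp70-like Hyou1 by 0.12 ± 0.04. In overexpression Calr rose by 0.11 ± 0.03 and Creld2 by 0.17 ± 0.06. Dnajb11 and Manf, a BiP co-chaperone and a secreted ER protein, went the other way in the knockdown, at -0.18 ± 0.06 (adjusted p = 0.0295) and -0.19 ± 0.05 (adjusted p = 0.00497). The call of Dnajb11 was lost without any 1 control library or knockdown replicate 3 (adjusted p 0.0618 to 0.149), and that of Hyou1 without control replicate 1 or 3 or knockdown replicate 1 or 2 (0.0658 to 0.13). With the length offset Dnajb11 (0.118) and Hyou1 (0.17) were lost, and in limma on TPM Dnajb11 (0.273) and Manf (0.097). Sdf2l1 was not called in the knockdown (-0.17, adjusted p = 0.0803) but was without knockdown replicate 2 (-0.25, adjusted p = 0.0151). P4hb, the archetypal disulfide isomerase, was not called, with 95% intervals of -0.04 to 0.09 in the knockdown and -0.05 to 0.09 in overexpression. Pdia6 varied between repeats, from 127 to 236 CPM within the overexpression line, and its intervals were wide (-0.40 to 0.26 and -0.28 to 0.38). Dnajc3 and Hspa13 were not called, and Hspa13 was called in overexpression without control replicate 2 (0.23, adjusted p = 0.0356).

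The calls of the small overexpression changes in the ER arm depended on single libraries, while the changes kept their direction. Across the 16 alternatives Hspa5 was at 0.11 to 0.2 and Dnajc10 at 0.14 to 0.18. Calr was at 0.09 to 0.14 and Creld2 at 0.13 to 0.2. Leaving out 1 library also moved the overexpression calls over all genes, to between 2440 and 3297 against 3172. Without control replicate 3 the count of ER-arm genes that rose went from 6 to 2. The calls lost were Hspa5 (adjusted p = 0.0515), Dnajc10 (0.0577), Calr (0.105) and Creld2 (0.0627), while Pdia4 and Herpud1 were kept. Hspa5 was also lost without overexpression replicate 2 (0.0512) and Dnajc10 without overexpression replicate 1 (0.0532). Calr was further lost without control replicate 2 or overexpression replicate 2 or 3 (0.0592 to 0.0685), and Creld2 without control replicate 1 or 2 or overexpression replicate 1 or 3 (0.0546 to 0.169). The same 4 calls were lost with the length offset (0.0572 for Hspa5, 0.0794 for Dnajc10, 0.108 for Calr and 0.142 for Creld2). In limma on TPM Hspa5 (0.082) and Calr (0.0656) were lost, and Calr also with no filter on low counts (0.062).

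Among the 4 ERAD genes, Herpud1 had the largest change of the ER arm. HERPUD1 is an ER membrane protein that helps assemble the HRD1 degradation complex. It was at 109, 105 and 109 CPM in the control, 178, 178 and 186 in the knockdown and 223, 237 and 229 in the overexpression libraries. The sets are far apart: 1.68-fold above the control in the knockdown (log2 0.75 ± 0.04, adjusted p = 2.34e-09) and 2.13-fold in overexpression (1.09 ± 0.04, adjusted p = 5.5e-11). Syvn1, which encodes the HRD1 ligase itself, rose in the knockdown by 0.25 ± 0.06 (adjusted p = 0.00589) and was at -0.00 in overexpression (adjusted p = 0.992). Its partner Sel1l was at 0.11 in the knockdown (adjusted p = 0.0771), called without control replicate 2 (0.0318) or knockdown replicate 2 (0.0431). Edem1, a lectin that delivers misfolded glycoproteins, was not called, at 0.02 and 0.07.

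The sensors split. Eif2ak3 (PERK) was at 53.7, 52.9 and 53.4 CPM in the control, 79.2, 82.5 and 81.7 in the knockdown and 70.4, 70.4 and 69.5 in the overexpression libraries. No library of either altered line came near the control, and the changes were 0.60 ± 0.06 (adjusted p = 6.45e-07) and 0.39 ± 0.06 (adjusted p = 0.000111). Atf6 was at 94.6, 95.2 and 105 CPM in the control, 99.4, 91.4 and 95.2 in the knockdown and 101, 96.7 and 102 in the overexpression libraries. Ern1 (IRE1) was at 23.2, 21.9 and 24.2, then 20.7, 21.6 and 24.6, then 27, 24.8 and 22 CPM. For both, the lines overlapped and no call was made. The 95% intervals were -0.16 to 0.07 and -0.09 to 0.13 for Atf6 and -0.26 to 0.15 and -0.11 to 0.29 for Ern1.

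Xbp1 fell where most called ER-arm genes rose. It was at 157, 142 and 155 CPM in the control, 143, 127 and 139 in the knockdown and 131, 130 and 128 in the overexpression libraries. The overexpression libraries lie below the control (-0.23 ± 0.05, adjusted p = 0.00577), and the knockdown libraries overlap it (-0.15 ± 0.05, adjusted p = 0.0399). The knockdown call was lost without any 1 of 7 libraries, namely control replicates 1 and 3, knockdown replicates 2 and 3 and each overexpression replicate (adjusted p 0.0549 to 0.164). Neither call passed when transcript length was corrected for, by a length offset (adjusted p 0.158 in the knockdown and 0.0651 in overexpression) or by limma on TPM (0.446 and 0.138). Splicing of Xbp1 was not analysed here.

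In the ATF4 arm, 10 of 17 genes rose and 3 fell in the knockdown (58.8% and 17.6%), with a median log2 fold change of 0.18. In overexpression 12 rose (70.6%) and 0 fell, with a median of 0.34. Of all genes tested, 18.0% rose and 17.4% fell in the knockdown, and 13.1% and 11.1% in overexpression. Among genes at or above the median level the shares are 24.6% and 21.4%, then 18.8% and 14.8%. The share of the arm that fell in the knockdown is near that of all genes. Atf4 was at 384, 347 and 351 CPM in the control, 388, 369 and 380 in the knockdown and 445, 446 and 442 in the overexpression libraries. The overexpression libraries are above all others (0.30 ± 0.04, adjusted p = 6.66e-05), while knockdown and control overlap (0.07 ± 0.04, adjusted p = 0.208). The first control library is the highest of its line, and without it the knockdown change was called (0.12, adjusted p = 0.041).

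Of the other transcription factors, Atf5, which like ATF4 is favoured under eIF2 phosphorylation, changed most. It was at 93.2, 93.1 and 94.8 CPM in the control, 112, 133 and 115 in the knockdown and 205, 196 and 184 in the overexpression libraries. The lines form 3 separate steps, with changes of 0.35 ± 0.06 (adjusted p = 0.000358) and 1.06 ± 0.06, or 2.08-fold (adjusted p = 6.25e-09). The knockdown call was lost with the length offset (adjusted p = 0.12) and in limma on TPM (0.0729). Ddit3 (CHOP), a factor linked to stress-induced death, was at 36.2, 36.5 and 35.8 CPM in the control, 44, 44.2 and 43.3 in the knockdown and 48.8, 52.1 and 47.6 in the overexpression libraries. It was higher in both lines, by 0.28 ± 0.07 (adjusted p = 0.00371) and 0.45 ± 0.07 (adjusted p = 0.00011), the first lost with the length offset (0.153). Atf3 was at 11.3, 12.6 and 14.7, then 10.8, 9.58 and 10.3, then 11.7, 10.7 and 8.43 CPM. Its knockdown libraries lie below the control, but neither change was called (-0.33, adjusted p = 0.111, and -0.32, adjusted p = 0.149).

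**Figure D4:**
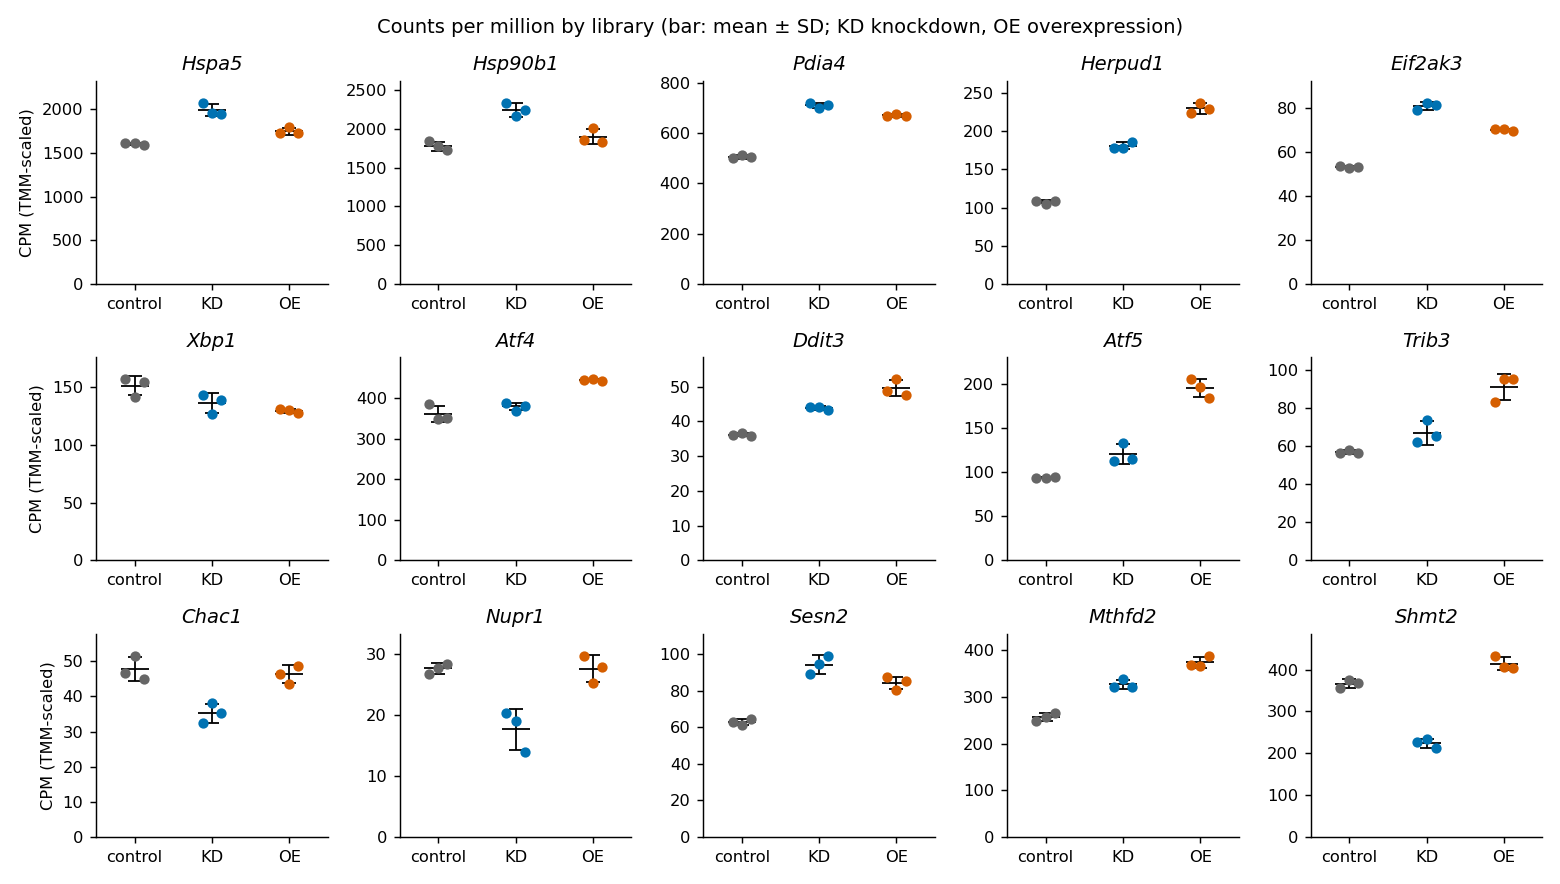
CPM of 15 genes in each library (points) of the control, knockdown and overexpression lines, with bars for the mean ± SD of each 3 libraries. Herpud1, Atf5 and Trib3 step up from control to knockdown to overexpression, Hspa5 and Eif2ak3 are highest in the knockdown, and Chac1, Nupr1 and Shmt2 are lowest there.

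Trib3, a pseudokinase induced by ATF4 and CHOP, was at 56.1, 57.8 and 56.4 CPM in the control, 61.9, 73.6 and 65 in the knockdown and 83, 94.9 and 95 in the overexpression libraries. The rise was 0.68 ± 0.08 in overexpression (adjusted p = 6.24e-06) and 0.23 ± 0.08 in the knockdown (adjusted p = 0.0238). The knockdown call was lost without control replicate 1 or 3 or knockdown replicate 2 (adjusted p 0.0617 to 0.108), or with the length offset (0.0955). Sesn2, a stress-induced inhibitor of mTORC1, was at 62.7, 61.3 and 64.4 CPM in the control, 89, 94.5 and 99.1 in the knockdown and 87.2, 80.3 and 85 in the overexpression libraries. Both lines were above the control, by 0.58 ± 0.06 (adjusted p = 1.91e-06) and 0.42 ± 0.06 (adjusted p = 0.000103). Ddit4 (REDD1), another mTORC1 inhibitor, was at 40.5, 37.6 and 39.7 CPM in the control, 58.7, 68.7 and 53 in the knockdown and 45.3, 45.1 and 48.8 in the overexpression libraries. It rose in the knockdown by 0.61 ± 0.09 (adjusted p = 4.17e-05). In overexpression its 0.24 ± 0.09 was not called (adjusted p = 0.058) but was without knockdown replicate 2 (0.0206) or 3 (0.0341), which enter the shared estimate of spread.

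Chac1 and Nupr1 fell in the knockdown. Chac1, which degrades glutathione, was at 46.6, 51.6 and 45.1 CPM in the control, 32.5, 38 and 35.2 in the knockdown and 46.5, 43.6 and 48.8 in the overexpression libraries. Nupr1, a small stress-induced chromatin protein, was at 26.8, 27.8 and 28.5, then 20.3, 19 and 13.9, then 29.8, 25.3 and 27.9 CPM. For both, the knockdown libraries lie below all others. Chac1 changed by -0.44 ± 0.08 (adjusted p = 0.000466) and Nupr1 by -0.64 ± 0.12 (adjusted p = 0.0006), while in overexpression they were at -0.04 (adjusted p = 0.754) and -0.00 (adjusted p = 0.993). Vldlr, a lipoprotein receptor, was at 8.21, 6.73 and 6.41 CPM in the control, 11.4, 11.2 and 12.6 in the knockdown and 12.6, 13.3 and 14.2 in the overexpression libraries. It rose in both lines, by 0.72 ± 0.14 (adjusted p = 0.000929) and 0.91 ± 0.14 (adjusted p = 0.000218), and the knockdown call was lost with the length offset (0.102) and in limma on TPM (0.12). Ppp1r15a (GADD34), which directs dephosphorylation of eIF2, was not called in either line, with intervals of -0.22 to 0.20 and -0.12 to 0.29.

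The 6 enzymes of amino acid and one-carbon metabolism were all called higher in overexpression, with a median of 0.35, where 13.1% of all genes were. In the knockdown 4 rose, 1 fell (66.7% and 16.7%) and 1 was not called, beside 18.0% and 17.4% of all genes. Asns, asparagine synthetase, was at 236, 236 and 240 CPM in the control, 267, 269 and 282 in the knockdown and 304, 309 and 303 in the overexpression libraries. Mthfd2, a mitochondrial folate enzyme, was at 248, 256 and 265, then 322, 338 and 320, then 369, 366 and 388 CPM. Both genes form 3 separate steps. Asns changed by 0.20 ± 0.04 (adjusted p = 0.00064) and 0.37 ± 0.04 (adjusted p = 3.71e-06), and Mthfd2 by 0.35 ± 0.04 (adjusted p = 6.97e-06) and 0.55 ± 0.04 (adjusted p = 1.11e-07).

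Shmt2, the mitochondrial serine hydroxymethyltransferase that works just before Mthfd2, went the opposite way in the knockdown. It was at 356, 376 and 367 CPM in the control, 226, 233 and 212 in the knockdown and 433, 406 and 404 in the overexpression libraries. The knockdown was far below both other lines (-0.71 ± 0.04, 1.64-fold lower than the control, adjusted p = 5.01e-09). The rise in overexpression, 0.18 ± 0.04 (adjusted p = 0.00745), was lost without overexpression replicate 1 (0.14, adjusted p = 0.0536).

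The serine synthesis enzymes act in the order Phgdh, Psat1, Psph. Phgdh was at 484, 496 and 488 CPM in the control, 540, 551 and 557 in the knockdown and 659, 684 and 639 in the overexpression libraries. Its changes were 0.17 ± 0.04 (adjusted p = 0.00209) and 0.43 ± 0.04 (adjusted p = 3.68e-07), but they are uncertain, since 56.3% of its 31-base words also occur in other genes, 44.8% in Gm7901. Psph was at 80.9, 74.6 and 77.7, then 75.3, 67.6 and 64.2, then 99.1, 98.9 and 96.7 CPM. It was higher in overexpression (0.34 ± 0.06, adjusted p = 0.00116, lost with the length offset at 0.425 and in limma on TPM at 0.37) and not called in the knockdown (-0.17 ± 0.07, adjusted p = 0.0566), where it was called without knockdown replicate 1 (-0.24, adjusted p = 0.0122). Psat1 rose by 0.18 ± 0.05 (adjusted p = 0.00505) and 0.17 ± 0.05 (adjusted p = 0.0115), the second lost without control replicate 3 (0.0835) or overexpression replicate 2 (0.0609), with the length offset (0.0881) and in limma on TPM (0.0594).

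Set directly against each other, the altered lines differed in opposite directions by arm. In overexpression against knockdown, 12 of 42 genes were higher and 10 lower, against 11.0% and 11.1% of all genes tested (22.1% in either direction), and 14.9% and 16.1% of those at or above the median level. Of the 21 ER-arm genes 2 were higher and 8 lower, with a median log2 difference of -0.06. Of the 17 ATF4-arm genes 10 were higher and 1 lower, with a median of 0.20. All 3 overexpression libraries lay above the 3 knockdown libraries in 15 members and below them in 12, against 17.9% and 18.0% of all genes. The ER genes lower in overexpression than in the knockdown were Hspa5 (-0.19 ± 0.03), Hsp90b1 (-0.24 ± 0.04), Pdia3 (-0.22 ± 0.04), Dnajc10 (-0.19 ± 0.04), Canx (-0.17 ± 0.04), Calr (-0.12 ± 0.03), Sel1l (-0.19 ± 0.05) and Syvn1 (-0.25 ± 0.06). The exceptions were Herpud1 (0.34 ± 0.04, adjusted p = 2.22e-05) and Sdf2l1 (0.27 ± 0.07, adjusted p = 0.0122). The call of Sdf2l1 was lost without knockdown replicate 1 (0.0648) or overexpression replicate 1 (0.0695), with the length offset (0.0536) and in limma on TPM (0.0843). In limma on TPM the calls of Hspa5 (0.0562), Calr (0.071), Canx (0.0737) and Sel1l (0.102) were lost as well, the last also with the length offset (0.0805). Hspa13, Dnajb9 and Manf were not called, but were without 1 library: Hspa13 without control replicate 2 or knockdown replicate 1 (0.0489 and 0.0281), Dnajb9 without knockdown replicate 2 (0.0169) and Manf without overexpression replicate 2 (0.0375).

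In the ATF4 arm the largest differences between the altered lines were those of Shmt2 (0.89 ± 0.04, 1.85-fold, adjusted p = 8.22e-10), Atf5 (0.70 ± 0.06, 1.63-fold, adjusted p = 5.03e-07) and Nupr1 (0.64 ± 0.12, adjusted p = 0.00115). Psph (0.51 ± 0.07), Trib3 (0.45 ± 0.07), Chac1 (0.40 ± 0.08), Phgdh (0.27 ± 0.04), Atf4 (0.23 ± 0.04), Mthfd2 (0.20 ± 0.04) and Asns (0.17 ± 0.04) were also higher in overexpression. The call of Psph was lost with the length offset (adjusted p = 0.246) and in limma on TPM (0.28), and that of Asns in limma on TPM (0.0876). Ddit4 was the exception, lower by 0.37 (SE 0.09, adjusted p = 0.00467). Sesn2 was at -0.16 (adjusted p = 0.0689) and was called lower without knockdown replicate 1 (-0.21, adjusted p = 0.0396). Among the sensors Eif2ak3 was lower in overexpression (-0.21 ± 0.06, adjusted p = 0.0133, lost with the length offset at 0.28 and in limma on TPM at 0.296), and Atf6, Ern1 and Xbp1 were not called.

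**Figure D5:**
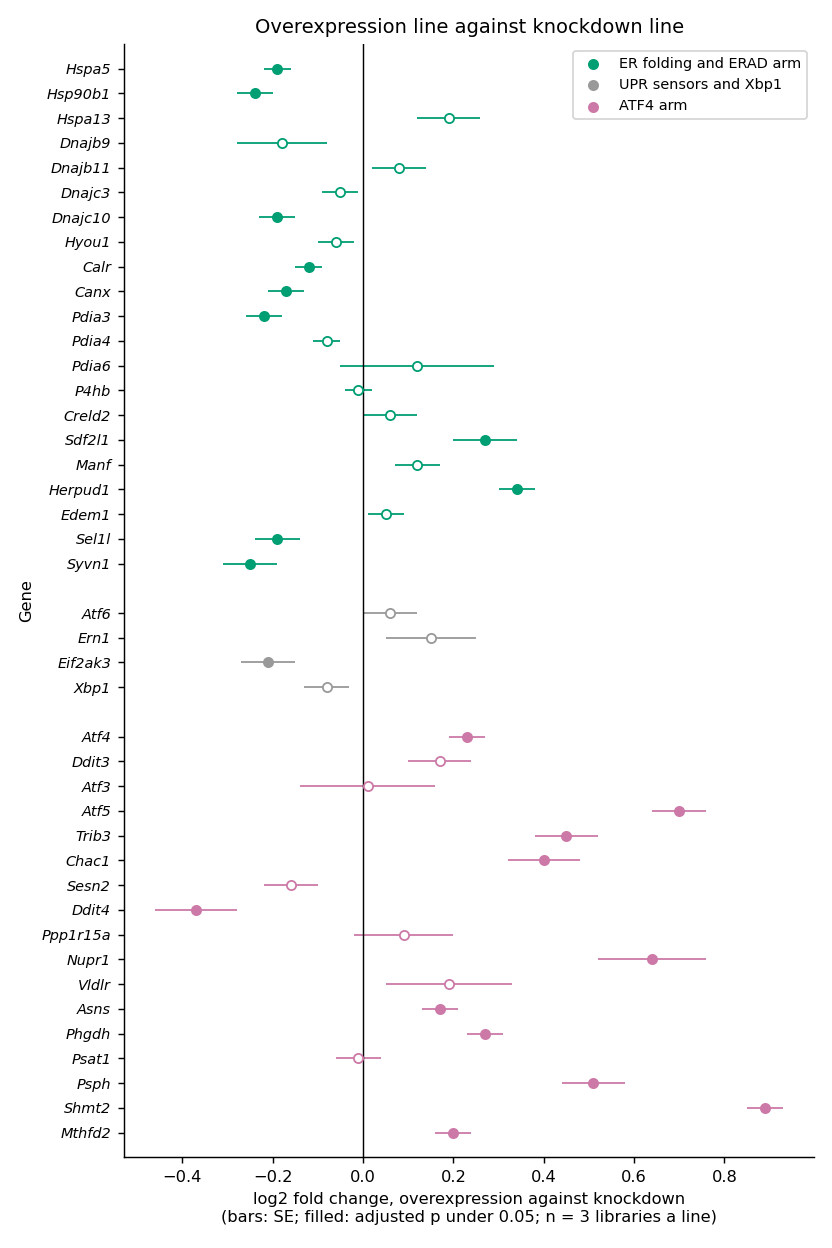
Log2 fold change of overexpression against knockdown for each gene, grouped by arm, with bars for 1 SE on either side and filled points for genes called at an adjusted p under 0.05. Called ER-arm genes lie left of 0 except Herpud1 and Sdf2l1, and called ATF4-arm genes lie right of 0 except Ddit4.

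Further genes of the same pathways were taken from lists that do not contain the 42. These lists, too, were chosen with earlier results of these data known. Of 32 other ATF4 targets tested, 12 rose and 5 fell in the knockdown (median -0.02), and 21 rose and 1 fell in overexpression (median 0.21). As shares these are 37.5% and 15.6%, then 65.6% and 3.1%, beside the 18.0% and 17.4%, then 13.1% and 11.1%, of all genes. Among genes at or above the median level the shares are 24.6% and 21.4%, then 18.8% and 14.8%. Set against the knockdown, 19 of the 32 were higher in overexpression and 2 lower (59.4% and 6.2%, median 0.17). All genes tested gave 11.0% and 11.1%, and those at or above the median level 14.9% and 16.1%. Log2 fold changes in this list ran from -1.18 to 0.99 in the knockdown and from -1.31 to 1.03 in overexpression. The largest in size were thus negative, in genes outside those with the lowest adjusted p, which are named next. Slc7a11, the cystine transporter, rose by 0.99 ± 0.05 (adjusted p = 3.9e-10) in the knockdown and 0.85 ± 0.05 (adjusted p = 5.6e-09) in overexpression. Jdp2 rose by 0.79 ± 0.09 and 1.03 ± 0.09, and the glutamine carrier Slc1a5 by 0.49 ± 0.06 and 0.72 ± 0.06. Aldh1l2, a mitochondrial folate enzyme, fell in the knockdown (-0.62 ± 0.06, adjusted p = 3.53e-07), and Cth, which makes cysteine, rose in overexpression (0.84 ± 0.08, adjusted p = 1.01e-06).

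Of 35 other ER folding, glycosylation and translocation genes, 9 rose and 9 fell in the knockdown (25.7% each), and 7 rose and 8 fell (22.9%) in overexpression. The knockdown shares are near those of genes at or above the median level, 24.6% and 21.4%, and the overexpression counts stand beside 18.8% and 14.8%. The counts set nothing apart in this list. Ero1a, which reoxidises disulfide isomerases, rose by 0.88 ± 0.07 in the knockdown (adjusted p = 3.71e-08) and 0.40 ± 0.07 in overexpression (adjusted p = 0.00028). The overexpression change was 0.23 with the length offset (adjusted p = 0.381) and 0.26 in limma on TPM (0.371), where the call was lost. In the knockdown Sec62 and Serp1 rose by 0.37 ± 0.05 and 0.31 ± 0.04, and Ssr2 changed by -0.33 ± 0.04. In overexpression Ostc and Rpn1, parts of the oligosaccharyltransferase, rose by 0.38 ± 0.06 and 0.21 ± 0.03, and Dnajc1 changed by -0.43 ± 0.06. Rpn1 was lost with the length offset (0.107) and in limma on TPM (0.116), and Dnajc1 in limma on TPM (0.0583). Between the altered lines, 4 of the 35 genes were higher in overexpression than in the knockdown and 3 lower (11.4% and 8.6%, median 0.00). All genes tested gave 11.0% and 11.1%, so this list did not share the lower values of the ER arm there. Of 19 other ERAD genes tested, 1 rose and 7 fell in the knockdown (5.3% and 36.8%), and 2 rose and 5 fell in overexpression (10.5% and 26.3%). All genes tested gave 18.0% and 17.4%, then 13.1% and 11.1%. Ufd1, a cofactor of the VCP segregase, had the largest named fall (-0.57 ± 0.07, adjusted p = 5.31e-06), followed by Ube2g2 (-0.41 ± 0.09), Selenos (-0.34 ± 0.05) and Edem2 (-0.34 ± 0.07). In overexpression Ube2g2 (-0.33 ± 0.09) and Edem2 (-0.28 ± 0.07) fell, and Nploc4 (0.22 ± 0.04) and Aup1 (0.15 ± 0.04) rose. In limma on TPM the calls of Ube2g2 in the knockdown (0.0819) and of Ube2g2 (0.0828), Edem2 (0.0716) and Aup1 (0.11) in overexpression were lost, Aup1 also with the length offset (0.154). In overexpression Edem2 was lost without overexpression replicate 1 (0.0502) and Ube2g2 without control replicate 3 or overexpression replicate 2 or 3 (0.0621 to 0.0786). Between the altered lines, 4 of the 19 other ERAD genes were higher in overexpression than in the knockdown and 1 lower (21.1% and 5.3%, median 0.05).

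Of 16 genes of sensor processing and regulation, 5 rose and 2 fell in the knockdown (31.2% and 12.5%), and 2 rose and 1 fell in overexpression (12.5% and 6.2%). All genes tested gave 18.0% and 17.4%, then 13.1% and 11.1%. The share that rose in overexpression is near that of all genes. Rtcb, the ligase that joins the exons of Xbp1 after IRE1 cuts it, fell in the knockdown by 0.75 on the log2 scale (SE 0.06, adjusted p = 5.43e-08). Bax, Creb3l2 and Tmbim6 rose there by 0.29 ± 0.06, 0.17 ± 0.05 and 0.13 ± 0.04. Creb3l2 was lost with the length offset (0.103), in limma on TPM (0.0825) and without control replicate 3 (0.0553), and Tmbim6 with the length offset (0.0538). Wfs1, an ER membrane protein, rose in overexpression by 0.61 ± 0.11 (adjusted p = 0.000611). Mbtps2, a protease that cuts ATF6, was at 0.31 ± 0.09 there and Crebrf at -0.37 ± 0.11, but with the length offset they were at -0.09 and 0.05, the opposite sign. Mbtps2 was also lost without control replicate 2 (0.117) or overexpression replicate 3 (0.107), and Crebrf without control replicate 1 or 2 or overexpression replicate 1 (0.0626 to 0.0938). Of the 31-base words of Mbtps2, 31.3% also occur in other genes, 28% in Yy2.

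Of 16 genes of eIF2 kinases, eIF2B and eIF2 phosphatase, 1 was called higher (6.2%) and 3 lower (18.8%) in each comparison with the control. All genes tested gave 18.0% higher and 17.4% lower in the knockdown, and 13.1% and 11.1% in overexpression. The share called lower in the knockdown is near that of all genes. Impact, an inhibitor of the amino acid sensing kinase GCN2, was at 0.49 ± 0.07 in the knockdown and 0.31 ± 0.07 in overexpression. Both calls were lost with the length offset (adjusted p 0.135 and 0.555) and in limma on TPM (0.0953 and 0.42). Eif2b2, Eif2b4 and Ppp1r15b were at -0.42, -0.38 and -0.14 in the knockdown and at -0.19, -0.36 and -0.14 in overexpression. With the length offset none of these 6 calls passed (adjusted p 0.0844 to 0.953), nor in limma on TPM (0.279 to 0.984). With the offset, Eif2b2 was at 0.02 and Eif2b4 at -0.04 in overexpression. Without any 1 control or overexpression library the overexpression call of Eif2b2 was lost too (0.0641 to 0.138). Ppp1r15b was lost in both comparisons without control replicate 2 (0.0986 and 0.141) and in overexpression without overexpression replicate 1 (0.087).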

How the data were processed

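The authors deposited 1 transcript table per library, whose estimated counts and TPM were used here. Salmon 1.4.0, DESeq2 1.34.0, MultiQC 1.11 and the genome build mm39 are named in the submitters' processing notes. The annotation release is not given in the sources used here. Per the labels' protocols, libraries were non-directional, so overlapping antisense transcripts cannot be told apart. Transcripts were named with GENCODE M21 (GRCm38). Of 140789 transcripts, 137161 (97.42%) matched, and unmatched ones (0.554% to 0.654% of counts) were left out. Estimated counts were summed to genes and rounded. Ddit3 had 2 gene entries, and only the one with the higher count total was used.

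edgeR 4.0.16 in R 4.3.3 fitted all 9 libraries (filterByExpr, TMM, quasi-likelihood, line as the only term). SE was derived from the fold change and its F statistic, and 95% intervals from the SE with a normal quantile. These intervals can therefore be narrower than the F distribution of the test would give. Levels are TMM-scaled CPM, or TPM between genes. No 2 repeats were copies (chi-square per degree of freedom 4.84 to 11.49). Every library's value is given for the sensors, Xbp1, Atf4, Ddit3, Atf3, Atf5, Hspa5, Hsp90b1 and each member called with an absolute log2 fold change of at least 0.3. Genes of the further lists are the up to 4 with the lowest adjusted p. Members and lists were chosen with earlier results of these data known. Alternatives used DESeq2 1.42.0, limma 3.58.1 on log2(TPM + 1), a transcript length offset, other filters, a replicate block and omission of each library. The fit was tested on simulated data with 200 genes changed per line, far fewer than were called in the real data. Of true log2 changes of 0.5, 68% were called in the knockdown and 66% in overexpression. Of changes of 1, 98% and 96% were called. False calls were 5.7% and 7.4% of all calls.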

Additional observations from a re-analysis of the deposited data

How the results depend on the processing

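Across 16 alternatives, 20 of 28 member calls in the knockdown, 12 of 20 in overexpression and 14 of 22 between the altered lines were kept in all. No call of a member reversed its direction. Sign changes of members called neither in the report nor in the alternative were not counted. The alternatives that correct for transcript length, a length offset and limma on TPM, made fewer calls, and the cause was not tested. With the length offset 2794, 1575 and 1423 genes were called in the knockdown, in overexpression and between the altered lines, and with limma on TPM 2729, 1461 and 1162, against 4619, 3172 and 2887 in the report. Leaving out 1 library gave 3885 to 4555, 2440 to 3297 and 2241 to 2867.

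In the knockdown, the ER-arm genes called lower went from 2 to 1 with the length offset, to 0 with limma on TPM, and to between 1 and 3 when 1 library was left out. The sensor group's lower call, Xbp1, went from 1 to 0 under both length-corrected alternatives and to between 0 and 1 when 1 library was left out. The ATF4-arm genes called higher went from 10 to 6 with the length offset. In overexpression, the ER-arm genes called higher went from 6 to 2 with the length offset and to between 2 and 7 when 1 library was left out, and the lower call of Xbp1 went from 1 to 0 under both length-corrected alternatives. Crebrf was at 0.05 with the length offset and 0.09 with limma on TPM, Eif2b2 at 0.02 and 0.06, and Mbtps2 at -0.09 and -0.05, each of the opposite sign to its value in the report.

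Between the altered lines, the ER-arm genes higher in overexpression went from 2 to 1 under both length-corrected alternatives and to between 1 and 3 when 1 library was left out. Those lower went from 8 to 4 with limma on TPM, and the lower call of Eif2ak3 went from 1 to 0 under both length-corrected alternatives. The ATF4-arm genes called lower went from 1 to 2 without knockdown replicate 1 and were 1 to 2 over all libraries left out.

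The replicate numbers did not pair the libraries, with correlations of -0.108 to 0.143 between same-numbered libraries. With a replicate block 4423, 2957 and 2712 genes were called, and the only member call to change was that of Creld2 in overexpression (adjusted p = 0.0527). Of the calls against the control named in the further lists, that of Eif2b2 in overexpression was lost (0.051).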
